A study of Bos taurus with 13 samples.

Results

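Bovine miR-148a, miR-148b and miR-152 form a small family of related miRNAs, and all 3 were taken here by name from the miRNA column of every library, whatever their values. They are 3 of the 311 miRNAs listed in any library and 3 of the 262 listed in each of the 13 libraries. Small RNA was sequenced from extracellular vesicles (EVs) of follicular fluid, drawn by ovum pick-up from the large follicles of Holstein Friesian cows and heifers. Each library is a pool of follicular fluid, and the labels call the pools of a group biological replicates without saying which animals entered which pool. p-values therefore measure the spread between pools, some of which may be technical.

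The 5 groups differed in energy balance after calving. Transition cows (TCs) were in negative energy balance early and positive later. They gave 3 pools at weeks 5 and 6 post-calving (labelled early negative, 11 cows) and 3 pools at weeks 9 and 10 (labelled late positive, 7 cows). The pools of the 2 times may share cows, and the tests took them as independent, because shared cows could not be matched to pools. Always negative cows (ANCs) and always positive cows (APCs) gave 2 pools each at weeks 5 and 6, from 2 cows in either group. Heifers, which had not calved and were labelled positive in energy, gave 3 pools from 8 animals. In the vesicle fraction, fewer vesicles of a cell type and less of a miRNA per vesicle cannot be told apart. The reads of listed miRNAs per library ranged from 145030 in an ANC pool to 421435 in an APC pool, with a median of 327359. All shares, CPM and total reads below refer to reads of listed miRNAs, which are only a part of the reads sequenced.

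A mature miRNA loads into an Argonaute protein and pairs through its seed, the bases near its 5′ end, with target mRNAs, which are then silenced. The members of the family are known to share a seed and to act on the DNA methyltransferases DNMT1 and DNMT3B. miR-148a is also known to repress the LDL receptor and the cholesterol exporter ABCA1 in liver, and it is abundant in milk. In the RefSeq gene table of assembly ARS-UCD2.0, MIR148B lay within COPZ1 and MIR152 within COPZ2, a pair of related genes for the zeta subunit of the COPI vesicle coat. MIR148A lay within no other gene, although it overlapped the miRNA gene MIR148D, and its nearest protein-coding gene was NFE2L3. MIR152 overlapped a further miRNA gene, MIR148C. The reads were mapped by the authors to UMD3.1, another assembly, so no position is given. Because the mature miRNAs of the family are close in sequence, the annotation of the reads could have split some of them between members, and the value of each member carries that uncertainty.

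All 3 members were well within the measurable range in every pool. bta-miR-148a had 1773 to 7727 reads, bta-miR-148b had 409 to 1691 and bta-miR-152 had 768 to 2255, while 3 reads, the smallest abundance taken as visible, equalled 7.91 to 18.96 CPM. As a share of a library's listed miRNA reads, bta-miR-148a took 0.902% to 2.03%, bta-miR-148b 0.159% to 0.627% and bta-miR-152 0.254% to 0.829%. The widest 95% Wilson interval of such a share spanned 0.128 percentage points, for counting error alone. Among the listed miRNAs of a library, bta-miR-148a ranked 12 to 26, bta-miR-152 26 to 53 and bta-miR-148b 38 to 67. The order of the members was therefore the same in all 13 pools, with bta-miR-148a first and bta-miR-148b last.

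Levels are given as CPM (reads scaled to a library of 1000000) on 1 scale for all pools, set with TMM factors (the trimmed mean of M-values, which aligns libraries on the bulk of their miRNAs). bta-miR-148a stood at 14585, 17557 and 11248 CPM in TCs at weeks 5 and 6, and at 12179, 16779 and 10771 CPM in TCs at weeks 9 and 10. It stood at 13097 and 11871 CPM in ANCs, 12156 and 20730 CPM in APCs, and 18162, 19291 and 13283 CPM in heifers. The single highest pool was an APC pool, and the other APC pool lay among the lowest. By mean level the order was heifers (16912 ± 3193 CPM, SD, n = 3), APCs (16443 ± 6063, n = 2), TCs at weeks 5 and 6 (14464 ± 3156, n = 3), TCs at weeks 9 and 10 (13243 ± 3142, n = 3) and ANCs (12484 ± 868, n = 2). Each neighbouring pair in that order overlapped in its pools.

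bta-miR-148b stood at 2385, 2435 and 2671 CPM in TCs at weeks 5 and 6, and at 4112, 3231 and 4235 CPM in TCs at weeks 9 and 10. It stood at 5519 and 2738 CPM in ANCs, 3500 and 2241 CPM in APCs, and 3440, 2991 and 3005 CPM in heifers. The early TC pools were the most alike and, as a group, the lowest, and none of them reached a pool of late TCs or of heifers. The order of means was ANCs (4128 ± 1966 CPM, SD, n = 2), TCs at weeks 9 and 10 (3859 ± 548, n = 3), heifers (3145 ± 255, n = 3), APCs (2870 ± 890, n = 2) and TCs at weeks 5 and 6 (2497 ± 153, n = 3). Neighbours in that order overlapped, and of the 2 ANC pools one was the highest of all 13 and the other lay near the early TCs.

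bta-miR-152 stood at 4654, 4765 and 5693 CPM in TCs at weeks 5 and 6, and at 5484, 4475 and 5618 CPM in TCs at weeks 9 and 10. It stood at 7293 and 5142 CPM in ANCs, 5702 and 3574 CPM in APCs, and 4492, 4262 and 4507 CPM in heifers. The heifer pools lay close together, and both ANC pools and all early TC pools lay above them. The order of means was ANCs (6218 ± 1521 CPM, SD, n = 2), TCs at weeks 9 and 10 (5192 ± 624.6, n = 3), TCs at weeks 5 and 6 (5037 ± 571, n = 3), APCs (4638 ± 1505, n = 2) and heifers (4420 ± 137, n = 3). Neighbours in this order overlapped as well.

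**Figure D1:**
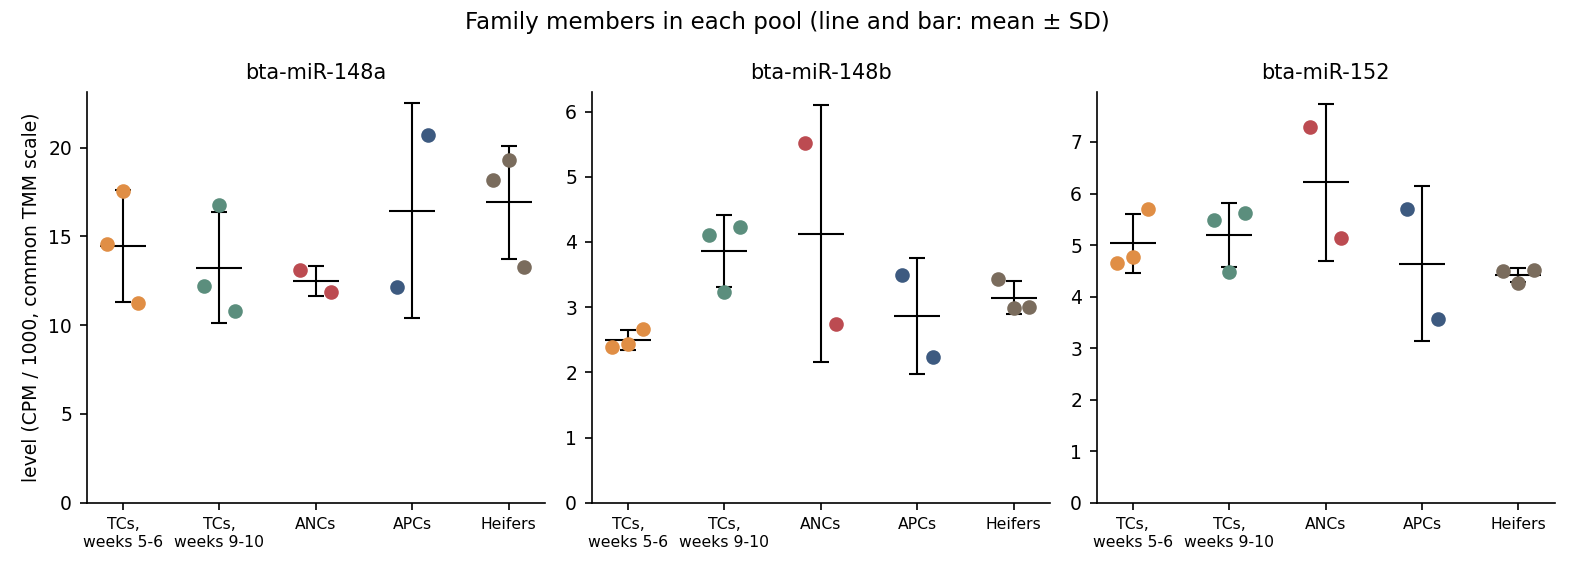
Level of each family member (vertical axis, CPM / 1000 on the TMM scale of all 13 pools, from 0) in the 5 groups. Each point is a pool, and the horizontal line and bar give the mean ± SD of 2 or 3 pools; bta-miR-148b is tight in TCs at weeks 5 and 6 (2385 to 2671 CPM), while the 2 ANC pools lie at 5519 and 2738 CPM.

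Summed over the family, the members took 1.57% to 2.94% of a library's listed miRNA reads. bta-miR-148a made up 50.6% to 78.1% of that sum, bta-miR-152 made up 13.5% to 29.0% and bta-miR-148b 8.44% to 21.3%. The summed level moved between 19612 and 26545 CPM over the 13 pools, a narrower range than that of any single member, whose highest pool was 1.92 (bta-miR-148a), 2.46 (bta-miR-148b) and 2.04 (bta-miR-152) times its lowest.

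Whether energy balance, lactation or time after calving went with the family was asked in 12 comparisons: the 10 pairs of groups, all 10 postpartum pools against heifers, and the 5 pools labelled negative (early TCs and ANCs) against the 5 postpartum pools labelled positive (late TCs and APCs). These comparisons share pools with each other. After the study's rule, DE (differentially expressed) stands for a log2 fold change of 1 or more in either direction together with p below 0.05 and an adjusted p no higher than 0.25, here with limma on log2(CPM + 5) and Benjamini-Hochberg adjustment over all miRNAs tested. No family member was DE in any comparison, 0 of 3 in each. Of all miRNAs tested, the share called DE was 18.8% for ANCs against heifers, 12.9% for APCs against heifers, 10.1% for APCs against late TCs, 6.61% for early TCs against heifers and 6.44% for postpartum cows against heifers. It was 0% for late TCs against heifers, late against early TCs, ANCs against APCs, ANCs against early TCs, APCs against early TCs, ANCs against late TCs and the negative against the positive pools.

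At an unadjusted p below 0.05 the count was also 0 of the 36 values (3 members, 12 comparisons), and the lowest p was 0.0612. Of all miRNAs tested, 22% passed that level for ANCs against heifers, 17% for APCs, 17.2% for early TCs, 10.6% for late TCs and 15% for all postpartum cows against heifers. Between postpartum groups 11.9% passed for APCs against late TCs, 9% for ANCs against APCs, 7.52% for ANCs and 2.65% for APCs against early TCs, 5.8% for ANCs against late TCs, 5.38% between the TC times and 1.39% for negative against positive pools. edgeR's quasi-likelihood test and DESeq2 on the recovered reads called 0 members as well. The log2 fold changes ran from -0.33 to 0.38 for bta-miR-148a, from -0.36 to 0.63 for bta-miR-148b and from -0.10 to 0.56 for bta-miR-152. For 19 of the 36 values the 95% interval lay wholly between -1 and 1 on the log2 scale, so that a change as large as the DE rule asks lay outside it. For the other 17 the interval reached past such a change.

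**Figure D2:**
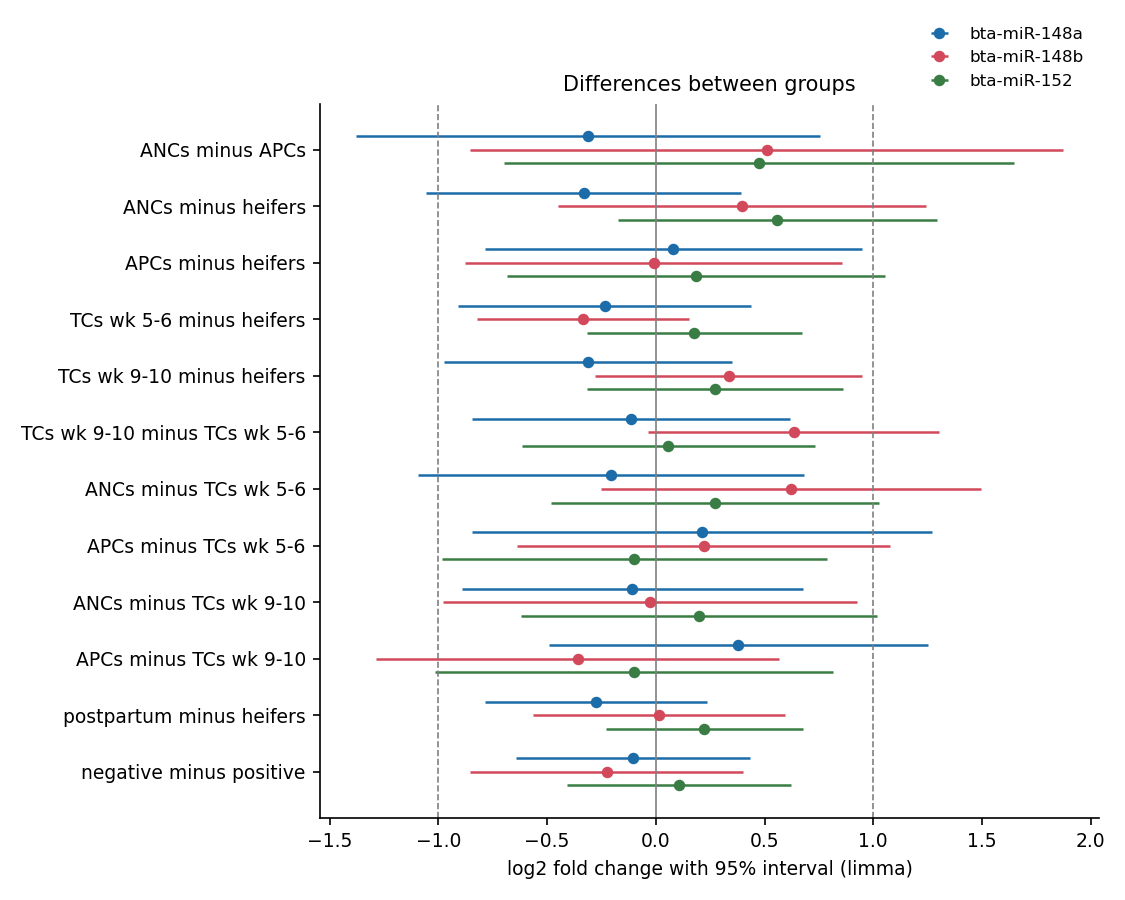
log2 fold change of each member (horizontal axis) with its 95% interval from limma in the 12 comparisons (rows), positive where the first group is higher; dashed lines mark -1 and 1. All 36 intervals include 0, and the comparison of late with early TCs for bta-miR-148b (0.63) comes nearest to leaving it.

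The furthest value from 0 was that of bta-miR-148b between the TC times. Its log2 fold change, late minus early, was 0.63 ± 0.30 (SE, 95% interval -0.04 to 1.30, adjusted p = 0.569, limma). All 3 late pools lay above all 3 early pools, as the values of 13.5% of the miRNAs tested did in either direction. The adjusted p over the alternative settings ran from 0.337 to 0.840. Against the early TCs the 2 ANC pools also lay higher in bta-miR-148b, by 0.62 ± 0.37 (SE, adjusted p = 0.591, limma), where 27% of all miRNAs did not overlap. Without ANC pool 1 that value was 0.21, and without ANC pool 2 it was 1.05. Early TCs against heifers gave -0.34 ± 0.21 (SE, adjusted p = 0.427, limma), without overlap, where 22% of all miRNAs did not overlap. It was -0.18 without early TC pool 2 and -0.22 without heifer pool 1. These results share the early TC pools, in which bta-miR-148b had its lowest mean.

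The energy contrast was set side by side in the TCs and in the cows of constant energy status. For bta-miR-148b the positive state minus the negative gave 0.63 within the TCs, while the negative minus the positive, ANCs minus APCs, gave 0.51 ± 0.53 (SE, adjusted p = 0.730, limma). The latter rested on single pools, at 0.02 without ANC pool 1, 0.99 without ANC pool 2, 0.87 without APC pool 1 and 0.14 without APC pool 2. A test of the difference between these contrasts (early minus late TCs, less ANCs minus APCs), chosen after the data were seen, gave -1.01 ± 0.54 for bta-miR-148b (SE, 95% interval -2.21 to 0.18, adjusted p = 0.389, limma, 239 miRNAs tested). It gave 0.55 for bta-miR-148a (adjusted p = 0.575) and -0.41 for bta-miR-152 (adjusted p = 0.680), both by limma. No miRNA had an adjusted p of at most 0.25 for this difference, and 36 of 239 had p below 0.05. For bta-miR-148b the value moved over 1.5 times with the scaling: on total reads it was -1.79 (adjusted p = 0.177, limma). That value met the DE rule, on a scale where 69 of the 239 miRNAs tested had an adjusted p of at most 0.25. Without ANC pool 2 the difference was -1.45, and without APC pool 1 it was -1.40. Without ANC pool 1 it was -0.66, and without APC pool 2 it was -0.63. Each of these fits left a single pool in a group, so only the size is given.

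For bta-miR-152 the widest value was that of ANCs against heifers, with a log2 fold change of 0.56 ± 0.32 (SE, 95% interval -0.18 to 1.29, adjusted p = 0.287, limma). The adjusted p ran from 0.223 to 0.587 over the alternative settings. Both ANC pools lay above all heifer pools, in a comparison where 47.2% of all miRNAs did not overlap. In the same comparison both ANC pools lay below all heifer pools in bta-miR-148a, with a log2 fold change of -0.33 ± 0.31 (SE, adjusted p = 0.488, limma). The pools of early TCs (log2 fold change 0.18, adjusted p = 0.674, limma) and of late TCs (0.27, adjusted p = 0.726, limma) also stood above the heifers in bta-miR-152 when only the libraries compared were scaled together. The first was 0.31 without early TC pool 1 and 0.35 without early TC pool 2, and the second 0.18 without late TC pool 3. Of all miRNAs, 15.4% did not overlap between late TCs and heifers. On the scale of all 13 pools 1 late TC pool fell to 4475 CPM, inside the heifer range. For bta-miR-148a the highest value was 0.38 ± 0.36 (SE, adjusted p = 0.820, limma), for APCs against late TCs. It was 0.72 without APC pool 1, 0.04 without APC pool 2 and 0.20 without late TC pool 3. In all, 7 of the 36 comparisons of members were without overlap, 3 each for bta-miR-148b and bta-miR-152 and 1 for bta-miR-148a. The comparisons without such a member were ANCs with APCs, where 43.1% of all miRNAs did not overlap, APCs with heifers (36.6%), APCs with late TCs (29.1%), ANCs with late TCs (27.2%), APCs with early TCs (15%), postpartum cows with heifers (4.72%) and negative with positive pools (0%).

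A ratio of members within a library needs no scaling between libraries. The reads of bta-miR-152 per read of bta-miR-148b were 1.95, 1.96 and 2.13 in TCs at weeks 5 and 6, and 1.33, 1.39 and 1.33 in TCs at weeks 9 and 10. They were 1.32 and 1.88 in ANCs, 1.63 and 1.59 in APCs, and 1.31, 1.42 and 1.5 in heifers. Every early TC pool exceeded every other pool, and the late TC pools lay within each other's counting intervals. The SD between the pools of a group on the log2 scale was 0.07 in early TCs, 0.03 in late TCs, 0.02 in APCs and 0.10 in heifers, while the counting error of a single pool was 0.05 to 0.09. The spread within these 4 groups was thus of about the size of the counting error, and only the 2 ANC pools lay well apart (SD 0.36).

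On the log2 scale the ratio of late minus early TCs was -0.58 ± 0.05 (SE, n = 3 and 3, exact permutation p = 0.1, adjusted over 12 comparisons 0.2). An exact test of 3 pools against 3 cannot go below p = 0.1, nor can 2 against 3, so neither reaches 0.05. Early TCs minus heifers gave 0.51 ± 0.07 (SE, exact permutation p = 0.1, adjusted 0.2). ANCs minus early TCs gave -0.35, APCs minus early TCs gave -0.32 and APCs minus late TCs gave 0.26, each without overlap and with an exact permutation p of 0.1. The first of these was -0.10 without ANC pool 1 and -0.61 without ANC pool 2. APCs minus heifers gave 0.20 without overlap (exact permutation p = 0.2). Late TCs and heifers overlapped, at -0.06 ± 0.06 (SE, exact permutation p = 0.4).

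Set beside other pairs of miRNAs, these shifts were ordinary in size. Of the 19110 pairs that could be formed from the miRNAs compared, 12.3% had ratios that did not overlap between late and early TCs, and 52.7% lay at least as far apart in their means as bta-miR-152 and bta-miR-148b. The share without overlap was 20.5% for early TCs against heifers, 25.8% for ANCs against early TCs, 16% for APCs against early TCs, 31.5% for APCs against late TCs and 38.9% for APCs against heifers. All 3 ratios of the family overlapped for ANCs with APCs, where 42.8% of pairs did not, for ANCs with late TCs (25.8%), late TCs with heifers (16.2%), postpartum cows with heifers (4.37%) and negative with positive pools (0.251%). The spread within groups was small beside that of the other pairs. Those pairs took in miRNAs down to a mean of 50 CPM and were not matched for reads. Counting error is larger for such low miRNAs, and its part in the difference of spread was not tested. The pooled within-group SD of the log2 ratio of bta-miR-152 to bta-miR-148b was 0.14, against a median of 0.83 over all pairs, and 7 of the 19110 pairs had a smaller one. For the ratio of bta-miR-148b to bta-miR-148a it was 0.55, with 20.8% of pairs smaller, and for bta-miR-152 to bta-miR-148a it was 0.53, with 18.8% smaller. These pair counts describe the libraries and were added after the ratios had been seen, and the part of reads shared between members in the annotation was not tested.

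**Figure D3:**
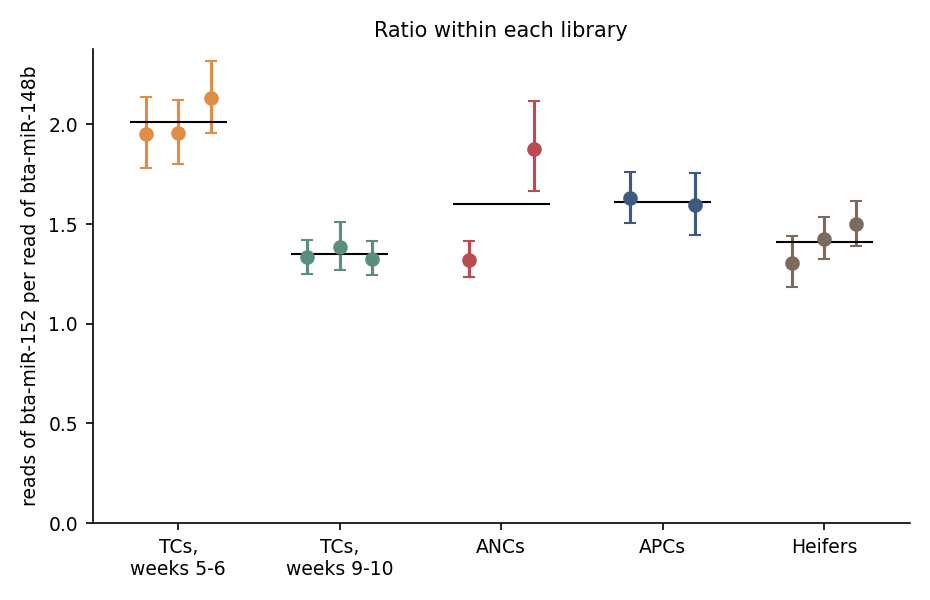
Reads of bta-miR-152 per read of bta-miR-148b in each pool (vertical axis, from 0) by group. Points are pools with 95% Wilson intervals for counting error, and horizontal lines are group means; early TCs lie at 1.95 to 2.13 and late TCs at 1.33 to 1.39.

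Across energy status the log2 ratio of bta-miR-152 to bta-miR-148b was 0.87 in the 5 negative pools and 0.53 in the 5 positive pools, a difference of 0.33 ± 0.14 (SE, exact permutation p = 0.0714, adjusted 0.2). The groups overlapped through ANC pool 1 alone, and without it the difference was 0.45. Leaving out each of the 10 pools in turn gave 0.28 to 0.45. The positive pools included late TCs, so that energy status and week after calving cannot be told apart in the TC part of this contrast. Between ANCs and APCs, both at weeks 5 and 6, the ratio differed by -0.03 ± 0.25 (SE, exact permutation p = 1, with 0.333 the smallest possible).

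Ratios that involve bta-miR-148a differed as follows. Per read of bta-miR-148a there were on average 0.175 reads of bta-miR-148b in early TCs, 0.295 in late TCs, 0.312 in ANCs, 0.176 in APCs and 0.188 in heifers (geometric means). For bta-miR-152 these were 0.353, 0.397, 0.491, 0.284 and 0.265, in the same order of groups. The ANC pools lay above all heifer pools in both ratios, by 0.73 ± 0.46 for bta-miR-148b (SE, log2, exact permutation p = 0.1, adjusted 0.8) and by 0.89 ± 0.26 for bta-miR-152 (SE, log2, exact permutation p = 0.2, adjusted 0.72). The value for bta-miR-148b was 0.30 without ANC pool 1 and 1.16 without ANC pool 2. Of all pairs of miRNAs, 42.3% had ratios without overlap in that comparison. Postpartum cows minus heifers gave 0.50 ± 0.25 for bta-miR-152 over bta-miR-148a (SE, log2, exact permutation p = 0.164, adjusted 0.72). Without APC pool 2, where bta-miR-148a peaked, that difference was 0.62, and leaving out each pool in turn gave 0.37 to 0.68.

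On the TMM scale the family was among the steadier miRNAs of these vesicles. Over the 13 pools the SD of log2(CPM + 5) was 0.26 for bta-miR-152, 0.32 for bta-miR-148a and 0.37 for bta-miR-148b, against a median of 0.59 over the 198 miRNAs with a mean of at least 50 CPM. 1 miRNA of the 198 had a smaller SD than bta-miR-152, 13 had a smaller one than bta-miR-148a and 30 than bta-miR-148b. Among the 95 miRNAs with a mean of at least 1000 CPM, nearer to the members in level, 1, 10 and 22 had smaller ones in the same order. Within groups the pooled SDs were 0.24, 0.34 and 0.33 in that order, where the median miRNA had 0.54 and 14, 39 and 35 miRNAs had smaller ones. On total reads, a scale added here after the data were seen, the SDs over the 13 pools were 0.40 for bta-miR-152, 0.33 for bta-miR-148a and 0.54 for bta-miR-148b, against a median of 0.63. There 15, 4 and 67 of the 198 miRNAs had smaller ones, so the order of the members depended on the scale.

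**Figure D4:**
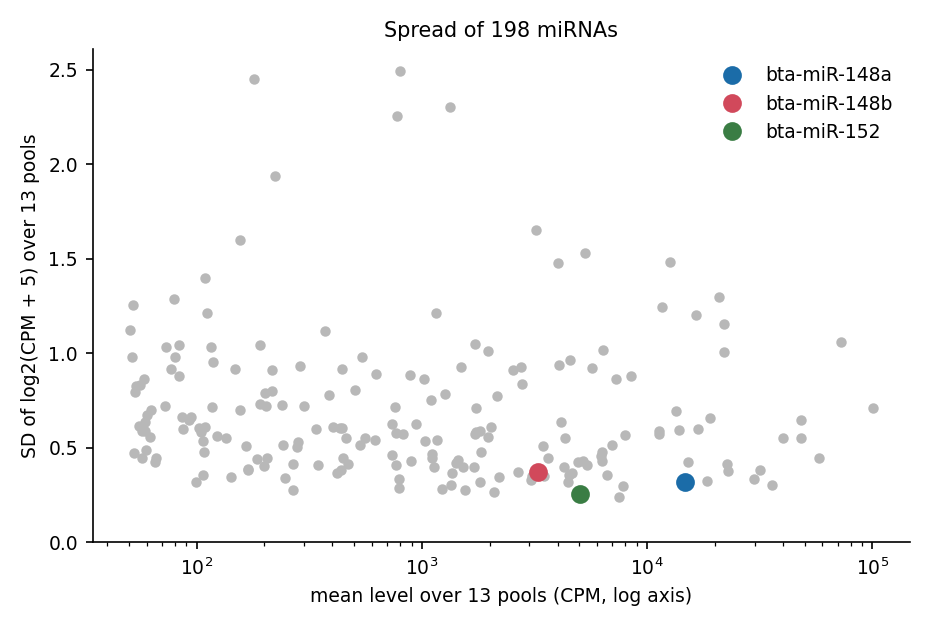
SD of log2(CPM + 5) over the 13 pools (vertical axis) against the mean level (horizontal log axis, CPM) for 198 miRNAs, grey, with the 3 family members in colour. All 3 lie in the lower part of the cloud, at 0.26, 0.32 and 0.37, below the median of 0.59.

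The members did not move together as one. Over the 13 pools and 3 pairs of members, log2 levels of bta-miR-148b and bta-miR-152 correlated with Pearson's r = 0.74 (permutation p = 0.00429, adjusted 0.00643) and Spearman's rho = 0.53 (permutation p = 0.0667, adjusted 0.1). Without the 2 pools farthest from the median, r was 0.46. Centred within groups it was 0.92, and with libraries scaled by their total reads it was 0.90 (permutation p = 7e-05). The relation between these members was positive on either scale.

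bta-miR-148a ran opposite to bta-miR-152 on the TMM scale, with r = -0.76 (permutation p = 0.00184, adjusted 0.00552) and rho = -0.82 (permutation p = 0.00118, adjusted 0.00354). Without the 2 farthest pools r was -0.60, and centred within groups it was -0.68. That relation did not hold on total reads, where r was -0.10 (permutation p = 0.737) and rho was -0.32 (permutation p = 0.280). For bta-miR-148a and bta-miR-148b, r was -0.44 (permutation p = 0.138) and rho -0.43 (permutation p = 0.147) on the TMM scale. On total reads r was 0.15 for that pair. The TMM scale stood at 0.830 to 1.41 times the scale of total reads, with the lowest factor in a late TC pool and the highest in APC pool 2, so that all members of a pool are moved together by the choice.

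**Figure D5:**
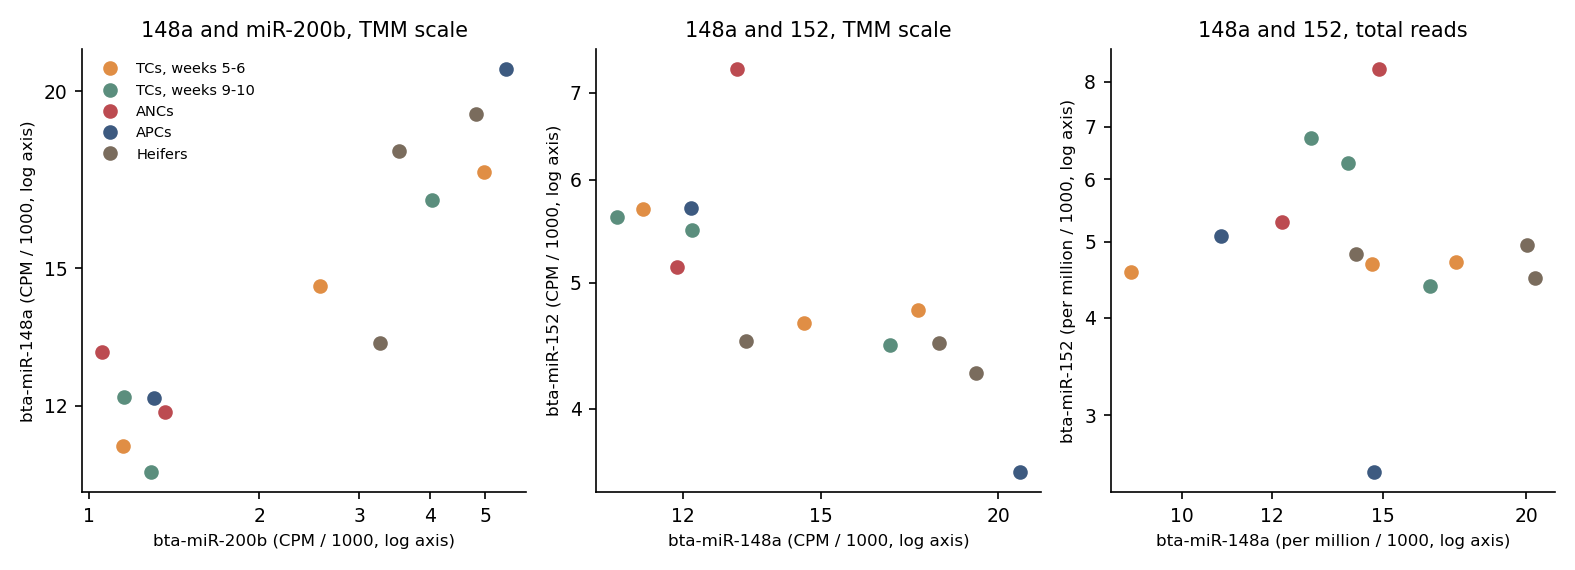
Left, bta-miR-148a against bta-miR-200b in 13 pools (CPM / 1000, TMM scale, log axes). Middle and right, bta-miR-152 against bta-miR-148a on the TMM scale (r = -0.76) and per 1000000 total reads (r = -0.10); each point is a pool, coloured by group.

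The miRNAs most like each member over the 13 pools, by Pearson's r of log2(CPM + 5) among the 198, are given as a description, since all points share libraries and scaling. For bta-miR-148a they were bta-miR-200b (r = 0.91), bta-miR-182 (0.90), bta-miR-200c (0.89), bta-miR-429 (0.85) and bta-miR-10a (0.84). Here miR-200b, miR-200c and miR-429 belong to the miR-200 family, known for its high level in epithelia. On total reads bta-miR-182 (r = 0.88), bta-miR-200b (0.83) and bta-miR-200c (0.78) held the first 3 places, in contrast to the relation with bta-miR-152. bta-miR-200b stood at 1058 to 1366 CPM in the 6 pools with least of it and at 2557 to 5444 CPM in the other 7, and the pools of high bta-miR-200b came from early TCs, late TCs, APCs and heifers.

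For bta-miR-148b the most alike were bta-miR-2483-3p (r = 0.87), bta-miR-744 (0.84), bta-let-7i (0.83), bta-miR-20a (0.80) and bta-miR-423-3p (0.78). For bta-miR-152 they were bta-miR-450b (0.81), bta-miR-2483-3p (0.77), bta-miR-2284z (0.77), bta-miR-497 (0.75) and bta-miR-148b (0.74). bta-miR-2483-3p thus stood high for both, and on total reads it was first for both (r = 0.93 with bta-miR-148b and 0.92 with bta-miR-152). Among the 197 other miRNAs ranked for likeness to bta-miR-148a, bta-miR-148b came at place 173 and bta-miR-152 at place 196.

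Only some marker lists of cell types moved with bta-miR-148a. On the TMM scale the epithelial and leukocyte lists and the liver miRNA rose with it, and the gonad list ran opposite (r = -0.69). The erythroid (r = -0.02) and muscle (r = 0.24) lists had weaker relations with it. All 7 of 7 epithelial miRNAs (miR-200a, miR-200b, miR-200c, miR-141, miR-429, miR-205 and miR-184) were listed in every pool, none at 0 reads. Their summed level ranged from 6204 to 32526 CPM in early TCs, 5713 to 18984 CPM in late TCs, 5150 to 8503 CPM in ANCs, 5956 to 30236 CPM in APCs and 16385 to 26019 CPM in heifers. As a description, its r over the 13 pools was 0.87 with bta-miR-148a, -0.65 with bta-miR-148b and -0.87 with bta-miR-152, and on total reads 0.79, -0.38 and -0.54. Leukocyte miRNAs, 6 of 6 listed and none at 0 reads, summed to 4868 to 6077 CPM in heifers, 2762 to 3063 CPM in early TCs, 1573 to 4820 CPM in late TCs, 2144 to 3971 CPM in APCs and 745 to 1580 CPM in ANCs. Their r was 0.61 with bta-miR-148a, -0.57 with bta-miR-148b and -0.82 with bta-miR-152, and on total reads 0.52, -0.31 and -0.51. The part of these markers in the members' levels was not tested.

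The other marker lists gave these values. The liver miRNA miR-122 lay between 5369 and 17623 CPM in heifers, 4212 and 5712 CPM in early TCs, 2682 and 4185 CPM in late TCs, 631 and 5858 CPM in APCs, and 329 and 2926 CPM in ANCs. Its r was 0.51, -0.56 and -0.75 with bta-miR-148a, bta-miR-148b and bta-miR-152, and on total reads 0.51, -0.28 and -0.39. The erythroid list summed to 131 to 1145 CPM in ANCs and between 751 and 10962 CPM in the other groups, with r of -0.02, -0.18 and -0.31 for the members in the same order and -0.16, -0.14 and -0.26 on total reads. Of its 3 miRNAs, bta-miR-144 was listed in the 3 heifer pools alone, and bta-miR-451 was at 0 reads in ANC pool 1. The muscle list, 3 of 4 listed, summed to 567 to 976 CPM in heifers and 224 to 482 CPM in the other groups (r of 0.24, -0.18 and -0.33, and on total reads 0.40, 0.21 and 0.13, where bta-miR-148b and bta-miR-152 turned sign). The gonad list of miR-202 and miR-132, 2 of 3 listed, summed to 3076 to 12784 CPM over all pools (r of -0.69, 0.43 and 0.50, and on total reads -0.28, 0.63 and 0.68). None of the listed liver, muscle and gonad miRNAs was at 0 reads in a pool.

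Other miRNAs with shared targets or sources were described by lists chosen for the family. Of 8 miRNAs known to act on DNA methyltransferases (miR-29a, miR-29b, miR-29c, miR-143, miR-342, miR-101, miR-185 and miR-126-3p), 8 were tested and 0 were DE in each of the 12 comparisons. Their median log2 fold change against heifers was 0.28 in ANCs, 0.48 in APCs, 0.36 in early TCs and 0.21 in late TCs, beside 0.03, 0.03, -0.03 and 0.02 for all miRNAs tested. Between late and early TCs it was -0.10, beside -0.06 for all.

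Of 13 miRNAs known to act on cholesterol and lipoprotein genes, 11 were listed and 8 were tested in a comparison. In ANCs against heifers 2 of the 8 were DE, where 18.8% of all miRNAs were. The liver miRNA bta-miR-122 fell by 3.31 ± 0.89 on the log2 scale (SE, adjusted p = 0.0998, limma) in ANCs against heifers. bta-miR-223, a myeloid miRNA, fell by 2.79 ± 0.50 in the same comparison (SE, adjusted p = 0.0782, limma). Both were also DE and lower in postpartum cows against heifers, where 6.44% of all miRNAs were DE. In early TCs against heifers bta-miR-223 was DE and lower (log2 fold change -1.80, adjusted p = 0.132, limma), where 6.61% of all miRNAs were DE. The other 9 comparisons held no DE member of the list.

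Of 19 miRNAs abundant in milk, all 19 were tested. In ANCs against heifers 5 of the 19 were DE, where 18.8% of all miRNAs were. Of these, 4 were lower, among them bta-miR-200b (log2 fold change -1.57), bta-miR-200c (-1.60) and bta-miR-182 (-1.28), the 3 most like bta-miR-148a, with adjusted p of 0.0782, 0.0782 and 0.109 by limma. The fourth was bta-miR-191, and bta-miR-26a was DE and higher. In APCs, bta-miR-103, bta-miR-26a and bta-miR-320a were DE and higher against heifers and against late TCs. Of all miRNAs tested, 12.9% were DE in the first of these comparisons and 10.1% in the second. In early TCs bta-miR-375 was DE and higher against heifers, where 6.61% of all miRNAs were DE. The other 8 comparisons held no DE miRNA of this list. The log2 fold change of bta-miR-148a, itself abundant in milk, was -0.33 in ANCs, 0.08 in APCs, -0.24 in early TCs and -0.31 in late TCs against heifers, and it was not DE in any of these.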

How the data were processed

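EV-coupled small RNA of 13 follicular fluid pools was analysed in 5 groups taken from the labels. Per the labels and the study's methods, the authors used a QIAseq miRNA kit. Reads were trimmed (Cutadapt 1.11), mapped (Bowtie2 2.2.2, UMD3.1), annotated against miRBase and normalized by TMM. The deposited value of each miRNA is a TMM-normalized CPM. In 7 libraries the column was recorded as signal, because the deposited totals exceeded what CPM can sum to. Whether molecular identifiers were collapsed is not given in the sources used here.

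Low values in a library differ by whole multiples of the value of 1 read, from which read numbers were recovered (3681 of 3681 values whole within 0.1 read), and intervals cover counting error only. Libraries of a comparison were rescaled with TMM (edgeR 4.0.16), filtered with filterByExpr (minimum count 10, total 15) and tested with limma 3.58.1 with a trend on log2(CPM + 5), whose fold changes understate those of low miRNAs. Alternatives were the edgeR quasi-likelihood test and DESeq2 1.42.0 on recovered reads, other pseudocounts, no filter, other scalings and a joint fit. Further ones were the day of RNA measurement, the replicate block and leaving out each pool. The day was fitted only where it was known for every pool and the model could be fitted, which was not so in every comparison. Ratios were tested by exact two-sided permutation over pools (scipy 1.17.1), and correlations with 100000 resamples. The procedures were tested on simulated data.

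The members and lists were chosen with earlier results of these data known. Named miRNAs are the members, the 5 most alike of those with a mean of at least 50 CPM, and the DE miRNAs of the lists. Of 56 list entries 52 were listed. A planned grouping of miRNAs by seed and mature sequences were not used here. Replicate numbers were taken to pair pools, by the values alone, only in early TCs and heifers: after subtracting group means, pools of equal number had correlations of 0.188, 0.372 and 0.371. The rule asked for 3 pairs. Groups with 2 pairs could not meet it, although ANCs and late TCs had 0.405 and 0.503, and APCs and late TCs 0.501 and 0.483. ANCs and APCs had 0.255 in either pair. This is only 1 value, since deviations from the mean of 2 pools mirror each other.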

Additional observations from a re-analysis of the deposited data

Results flagged for a closer look

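In ANC pool 1 bta-miR-148b stood at 5519 CPM, far above the other 4 pools labelled negative in energy (2385 to 2738 CPM). On the scale of log2(CPM + 5) the gap to the nearest of them was 0.836 of the whole range of the 5 pools, above the critical value of 0.71 for 5 samples. In the same pool the ratio of bta-miR-152 to bta-miR-148b was 1.32, below the 1.88 to 2.13 of the other 4 negative pools. There the gap on the log2 scale was 0.735 of the range. Both values come from the same reads of bta-miR-148b, 1393 in that pool, and are not independent. Dixon's test was made 18 times, and chance marks about 1 group in 20.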

How the results depend on the processing

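The number of family members called DE was 0 in each of the 12 comparisons under every alternative run, the replicate block included. In the added test of the difference of the energy contrasts, bta-miR-148b met the DE rule on total reads (-1.79). On that scale 69 of the 239 miRNAs tested had an adjusted p of at most 0.25, against 0 in the main setting. The difference was -1.45 without ANC pool 2 and -1.40 without APC pool 1, fits that left a single pool in a group. The replicate block left bta-miR-148b between late and early TCs at a log2 fold change of 0.63, with an adjusted p of 0.624 by limma. For early TCs against heifers, where the numbers may pair pools, it moved the count of all miRNAs called from 15 to 29 and changed no call of a member. It moved that count from 41 to 67 in ANCs against heifers and from 0 to 7 in late TCs against heifers. The move was from 0 to 31 in ANCs against APCs, 0 to 25 in ANCs against late TCs and 0 to 2 in ANCs against early TCs. In APCs the count moved from 29 to 41 against heifers and from 23 to 28 against late TCs. For postpartum cows against heifers it moved from 15 to 18, and the remaining comparisons stayed at 0. In the labels, same-numbered pools of these groups shared only a number. By the values they correlated at 0.405 and 0.503 in ANCs with late TCs and at 0.255 in ANCs with APCs. Pools of APCs correlated at 0.501 and 0.483 with late TCs and at 0.210 and -0.052 with heifers. The correlations were 0.106 and -0.026 in ANCs with heifers and -0.068 and -0.102 in ANCs with early TCs. In late TCs with heifers they were 0.009, -0.156 and -0.135. Of 603 recomputed log2 fold changes of members, 52 changed sign, all of values that were not called, and 7 reached p below 0.05, all for bta-miR-148b. On total reads the median of all miRNAs moved from -0.03 to 0.36 in ANCs against APCs, and from 0.03 to -0.54 in APCs against heifers. On total reads the correlation of bta-miR-148a with bta-miR-152 was -0.10 in place of -0.76, and that with bta-miR-148b 0.15 in place of -0.44. The difference of the energy contrasts for bta-miR-148b lay between -1.45 and -0.63 when a pool was left out. For bta-miR-148a it was -0.22 on total reads. The causes were not tested. The groups held 2 or 3 pools, and each member had at least 409 reads in a pool.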
